A study of Homo sapiens with 62 samples.

Results

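A set of 56 genes had more newly made RNA, relative to the other genes of a library, after the transcription factor KLF5 was degraded, in each of 2 human pancreatic ductal adenocarcinoma lines, AsPC-1 and T3M-4. They were chosen from these data by a rule on reads with T>C conversions, which in SLAM-seq mark RNA made while the cells held 4-thiouridine (4sU), here the last 2 h before harvest. T>C counts were scaled within each line to a common library total by TMM (CPM), and a gene was taken when its mean log2(CPM + 1) was at least 0.35 higher in dTAG than in NEG libraries of both lines and its mean in NEG was at least 10 CPM in both lines, with KLF5 itself left out. The level part of the rule was met by 6821 of the 29794 gene names, of which 207 reached the difference in AsPC-1 and 574 in T3M-4, and 56 reached it in both. By the same threshold 300 genes were lower after degradation in both lines. The dTAG and NEG values below chose these genes and are given as a description, with no test. The libraries of CB-6644, NVP-2 and DMSO had no part in the choice of genes, although they did enter the scaling of a line, and only they were tested.

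All groups shared 1 genotype, FKBP12-F36V-FLAG-KLF5_sgEndogenousKLF5: Cas9 cells in which a tagged KLF5 cDNA was delivered by lentivirus and the endogenous gene was then knocked out, so that KLF5 came from a transgene in controls and treated cells alike. The dTAG groups received the degrader dTAGv1 for 4 h (10 libraries of AsPC-1, 4 of T3M-4) and the NEG groups its inactive analogue dTAG-NEG for 4 h (10 and 4). CB-6644 (CB6644 in the labels), which inhibits the AAA+ ATPases RUVBL1 and RUVBL2, was given for 4 h (5 and 4 libraries) or, in AsPC-1 alone, for 12 h (4 libraries). NVP-2 (NVP2), which inhibits the transcription elongation kinase CDK9, was given for 4 h (4 and 4 libraries). The solvent DMSO served as control at 4 h (5 and 4 libraries) and at 12 h in AsPC-1 (4 libraries). CB-6644 and NVP-2 at 4 h were set against the same DMSO libraries of a line. The labels do not say that replicates are separate cultures, so p-values measure the spread between these samples, which may be technical.

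KLF5 is a zinc finger transcription factor of the KLF/SP family that binds GC-rich and CACCC elements, and it is known in pancreatic cancer as a factor that keeps epithelial and proliferative genes active. The Hippo pathway restrains the coactivators YAP and TAZ, which drive TEAD target genes in growing and migrating cells, and ERK signalling downstream of growth factor receptors induces its own inhibitors. Among the members were the TGF-β ligand TGFB2, the matrix proteins THBS1 and CCN1, the Hippo pathway coactivator WWTR1 (TAZ), the Notch ligand JAG1, and the feedback inhibitors SPRY1, SPRY2 and ERRFI1.

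The 62 libraries held 2240998 to 18311982 T>C reads each in AsPC-1 and 3714015 to 27982537 in T3M-4. Most of the markers chosen for the classical and basal-like subtypes separated the lines in all reads of DMSO libraries at 4 h. HNF4A was at 16.2 CPM in AsPC-1 and 0.287 in T3M-4, and KRT5 at 0.0588 and 274. MYO1A, FA2H, TP63, KRT17 and S100A2 did not overlap either. The classical marker MUC1 did, with 19.0 to 253 CPM in AsPC-1 and 16.2 to 49.1 in T3M-4. Most AsPC-1 libraries fell into sets that the labels do not name and that were seen in the data. DCLK1 had from 13.8 to 40.3 T>C CPM in 17 libraries (DCLK1-high) and from 0 to 1.67 in another 17 (DCLK1-low). The 8 libraries of experiment 2 of batch 1 were kept as a further set by their label alone. Their DCLK1, at 0.0795 to 1.88, was as low as in the DCLK1-low set. Each set held as many dTAG as NEG libraries (4, 4 and 2), and the differences are given within the sets as well. In such bulk samples, fewer cells of a kind and less RNA per cell cannot be told apart.

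The direction is relative to the other genes of a library. After scaling by all reads in place of T>C reads, 11 genes met the rule, 8 of them among the 56. With TMM computed from the dTAG and NEG libraries alone 58 genes met it, 53 of them shared, and with RLE in place of TMM 56 genes, 55 shared. Without experiment 2 of T3M-4, 43 genes met it and 33 were shared. In AsPC-1, leaving out experiment 1 gave 65 genes (42 shared), experiment 2 71 (54 shared) and experiment 3 71 (45 shared). Of the culture sets alone, DCLK1-low gave 87 genes (45 shared), DCLK1-high 89 (49 shared) and experiment 2, with 2 libraries a group, 75 (28 shared). Just inside the threshold lay ZBTB18, with differences of 0.37 in AsPC-1 and 0.35 in T3M-4, and MRPL15, with 0.35 and 0.39. Just outside lay MAPK8, at 0.40 and 0.35 (below the threshold before rounding), and FNDC3B, at 0.34 and 0.42. KLF5, left out by the rule, differed by 0.59 and 0.91. Its counted reads come from the gene's 3′UTR and say nothing of the degraded protein.

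The promoters of 4 members are shown because the results turn on these genes. THBS1 led the list, and NR2F1, JAG1 and ELOVL6 were the members whose dTAG libraries lay above all NEG libraries in both DCLK1 sets of AsPC-1 and in T3M-4 (ELOVL6 was named after its values were seen). Each line gives the 250 bases before the RefSeq start site on GRCh38.p14, from 5′ to 3′ on the gene's strand, and capitals mark letters searched on both strands: GGGCGG and CACCC, the kinds of element that KLF and SP factors bind, GGGTGGGG, the AP-1 element TGACTCA and the TEAD element GGAATG. GGGTGGGG holds the reverse of CACCC, so these matches overlap.
THBS1, chr15:39580829-39581078 (+): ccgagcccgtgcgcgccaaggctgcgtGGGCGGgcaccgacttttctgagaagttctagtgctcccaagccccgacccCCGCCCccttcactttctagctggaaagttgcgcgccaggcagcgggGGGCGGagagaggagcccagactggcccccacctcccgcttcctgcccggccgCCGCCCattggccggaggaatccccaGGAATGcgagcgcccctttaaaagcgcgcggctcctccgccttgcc
NR2F1, chr5:93582972-93583221 (+): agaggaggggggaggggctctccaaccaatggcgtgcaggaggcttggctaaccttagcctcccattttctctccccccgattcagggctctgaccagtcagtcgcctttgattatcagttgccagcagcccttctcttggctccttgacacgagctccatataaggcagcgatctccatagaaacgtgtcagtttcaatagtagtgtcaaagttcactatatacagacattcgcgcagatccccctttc
JAG1, chr20:10674000-10674249 (−): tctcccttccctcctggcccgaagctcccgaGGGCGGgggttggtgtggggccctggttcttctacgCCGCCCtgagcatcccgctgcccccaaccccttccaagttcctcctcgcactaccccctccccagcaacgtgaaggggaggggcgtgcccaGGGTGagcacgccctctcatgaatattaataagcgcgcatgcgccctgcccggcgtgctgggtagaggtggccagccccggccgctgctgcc
ELOVL6, chr4:110198616-110198865 (−): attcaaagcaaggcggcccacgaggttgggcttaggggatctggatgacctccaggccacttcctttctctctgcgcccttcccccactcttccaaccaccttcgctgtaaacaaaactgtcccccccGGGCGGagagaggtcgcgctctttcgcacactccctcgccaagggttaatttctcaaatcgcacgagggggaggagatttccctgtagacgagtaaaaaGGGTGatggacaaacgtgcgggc

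THBS1 held GGGCGG or its reverse 4 times and GGAATG once, while NR2F1 held none of these letters. RefSeq promoters, searched from 250 bases before to 50 after the start, were found for 48 of the 56 members. GGGCGG was in 33 of 48 (68.8%), against 71.9% of the promoters of genes at the level part of the rule and 44.6% of all 27305 promoters. CACCC was in 29 (60.4%, against 62.5% and 58.9%), GGGTGGGG in 7 (14.6%, against 11.4% and 10.5%), TGACTCA in 3 (6.25%, against 2.84% and 4.92%) and GGAATG in 8 (16.7%, against 10.3% and 14.0%). The median GC content was 66.8% in members and 65.7% in genes at the level part. These are matches of letters in a window and not sites.

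Of the 56 members 53 are protein coding (94.6%, against 97.5% of genes at the level part), and SNHG32, LINC00847 and CTC-338M12.4 are long noncoding RNAs. The members lie on 19 chromosomes. Their annotated 3′UTRs, the regions where reads were counted, had a median union of 3515 bases against 2588, with 36 of 53 above the latter. THBS1 (ENSG00000137801.11) lies on hg38 at chr15:39581079-39599466, plus strand, NR2F1 (ENSG00000175745.15) at chr5:93583222-93594611, plus strand, JAG1 (ENSG00000101384.12) at chr20:10637684-10673999, minus strand, and ELOVL6 (ENSG00000170522.10) at chr4:110045846-110199199, minus strand. In 4 members the counts of a line were all multiples of 1 whole number, a mark of reads entered more than once: DNMBP by 3 and SPRY2 by 2 in both lines, and ELOVL6 and IL11RA by 2 in T3M-4. The rule and all values here use the counts undivided. Divided by these numbers, the mean NEG levels of DNMBP, ELOVL6 and IL11RA in T3M-4 would lie under the 10 CPM of the rule. The search needed every library of a line to fit, so it misses members with such steps in only part of the libraries. In the NVP-2 libraries of AsPC-1, SNHG32 had 50, 10, 0 and 20 T>C reads and IL11RA 0, 18, 0 and 108. RCAN1 had 90, 45, 36 and 36 there, LINC00847 20, 0, 20 and 0, and ZBTB18 5, 10, 0 and 10.

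The secreted and matrix proteins held 8 members (THBS1, CCN1, LAMB1, SEMA3A, TGFB2, BDNF, PRSS23 and FAM3C), with a median difference, dTAG minus NEG in log2(CPM + 1), of 0.55 in AsPC-1 and 0.58 in T3M-4. THBS1, thrombospondin-1, a matricellular glycoprotein that activates latent TGF-β, had 7.30, 34.0 and 51.9 T>C CPM (lowest, median and highest of 10) in AsPC-1 NEG libraries and 13.4, 64.1 and 90.6 in dTAG. In T3M-4 it had 100.01, 85.2, 203 and 214 CPM in NEG and 169, 203, 361 and 412 in dTAG. The ranges overlapped in both lines: 6 of 10 dTAG values of AsPC-1 and 2 of 4 of T3M-4 exceeded the highest NEG value. The differences were 0.87 and 0.94. In AsPC-1 the level of THBS1 depended on the culture set, with means of 41.1 (NEG) and 79.2 (dTAG) CPM in DCLK1-low and 8.93 and 17.4 in DCLK1-high libraries.

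TGFB2, a TGF-β ligand, had 7.39, 122 and 214 CPM in AsPC-1 NEG and 15.4, 185 and 359.8 in dTAG, a difference of 0.61. The T3M-4 libraries had 38.6, 42.8, 23.5 and 29.1 CPM in NEG and 75.3, 74.8, 43.2 and 36.4 in dTAG, a difference of 0.72. The 2 libraries of each experiment sat together in T3M-4, and the dTAG pair lay above the NEG pair within both experiments. SEMA3A, a secreted guidance protein, had 3.94, 13.9 and 27.7 CPM in NEG and 12.2, 32.1 and 63.9 in dTAG of AsPC-1, and 35, 40.4, 20.5 and 19.2 in NEG and 42.9, 60.7, 32.5 and 31.9 in dTAG of T3M-4 (differences 1.00 and 0.55). CCN1, a matricellular protein and a known target of YAP and TAZ, had 154, 342 and 563 CPM in AsPC-1 NEG and 271, 683 and 1560.0 in dTAG (difference 0.96). Its T3M-4 libraries differed less, with 422, 424, 300 and 303 CPM against 441, 585, 441 and 383 (0.35, at the edge of the rule), with 3 of 4 dTAG values over the highest NEG value.

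The receptors and membrane proteins held 8 members (ITGAV, TM4SF1, IL11RA, JAG1, SGCE, CRIM1, SLC38A2 and CLCC1), with medians of 0.47 and 0.67. JAG1, a transmembrane ligand of Notch receptors, had 42.4, 49.8 and 62.2 CPM in AsPC-1 NEG and 43.0, 73.6 and 85.6 in dTAG, with 8 of 10 dTAG values over the highest NEG value. T3M-4 libraries held 34.1, 31.5, 25.4 and 25.9 CPM in NEG and 49.0, 49.1, 47.0 and 65.0 in dTAG, with no overlap. The differences were 0.45 and 0.82. TM4SF1, a tetraspan surface protein, was far higher in AsPC-1 (187, 314 and 777 CPM in NEG, 348, 452 and 978 in dTAG) than in T3M-4 (22.7, 19.1, 17.2 and 11.8 in NEG, 48, 36.7, 18.7 and 19.6 in dTAG). Its difference was 0.69 in each line, and experiment 2 of T3M-4 overlapped the NEG libraries. ITGAV, the integrin αV subunit, differed by 0.46 and 0.57. IL11RA, the receptor of interleukin-11, rested on few reads: 1 NEG library was at 0 CPM in each line, and in T3M-4 the values were 5.62, 20.9, 18.7 and 0 in NEG and 24.0, 13.9, 8.93 and 14.5 in dTAG.

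The feedback and signalling inhibitors were SPRY1, SPRY2, ERRFI1, RCAN1, UBASH3B and PTPN14, with medians of 0.46 and 0.70. SPRY1, a Sprouty protein that restrains receptor tyrosine kinase signalling to ERK, had 16.3, 45.2 and 157 CPM in AsPC-1 NEG and 29.2, 69.4 and 325 in dTAG. In T3M-4 it had 52.1, 42.3, 22 and 36.5 CPM in NEG and 73.4, 94.6, 79.5 and 74.6 in dTAG. The T3M-4 groups did not overlap (difference 1.11), whereas in AsPC-1 2 of 10 dTAG values were over the highest NEG value (0.71). SPRY2, its paralogue, had 42.7, 68.9 and 95.6 CPM in AsPC-1 NEG and 60.1, 92.0 and 138 in dTAG, and in T3M-4 65.2, 57.7, 49.2 and 57.8 in NEG and 73.5, 98.8, 80.0 and 67.3 in dTAG. The difference was 0.46 in each line, with no overlap in T3M-4. ERRFI1 (MIG6), an inhibitor of the EGFR kinase, had 36.6, 50.6 and 86.3 CPM in AsPC-1 NEG and 59.0, 105 and 167 in dTAG (0.86). The values in T3M-4 were 119, 117, 136 and 138 CPM in NEG and 181, 207, 186 and 228 in dTAG, again with no overlap (0.65).

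The transcription factors and cofactors were the largest group by count, with 11 members (NR2F1, RUNX2, AHR, WWTR1, FOXD1, STAT2, ZBTB18, NFKBIZ, SSBP2, NCOA7 and ZNF232) and medians of 0.45 and 0.63. NR2F1 (COUP-TFI), an orphan nuclear receptor, had 135, 181 and 306 CPM in AsPC-1 NEG and 166, 335 and 559 in dTAG. Its T3M-4 values were 32.2, 27.4, 31.9 and 20.7 CPM in NEG and 67.7, 58.8, 55.6 and 59.8 in dTAG. Every T3M-4 dTAG library lay above every NEG library, as did 6 of 10 in AsPC-1 (differences 1.1 and 0.70). WWTR1, the coactivator TAZ that works with TEAD factors, had 47.4, 88.1 and 100.5 CPM in AsPC-1 NEG and 83.2, 118 and 164 in dTAG (0.49). T3M-4 gave 64.8, 92.1, 65.4 and 79.4 CPM in NEG and 119.5, 130.4, 172 and 173 in dTAG, with no overlap (0.97). RUNX2, a Runt-domain factor best known in bone, was low in AsPC-1, at 3.60, 11.6 and 27.4 CPM in NEG and 9.95, 17.8 and 36.3 in dTAG (0.65), and differed by 0.87 in T3M-4. AHR, the ligand-activated aryl hydrocarbon receptor, differed by 0.45 in AsPC-1 and, with no overlap, by 0.61 in T3M-4 (219, 214, 200.3 and 235 CPM in NEG, 292, 429, 283 and 339.5 in dTAG).

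The 6 regulators of G proteins, small GTPases and the cytoskeleton (DNMBP, EPS8, DOCK9, RAPGEF5, LIMCH1 and GNAI1) had medians of 0.52 and 0.65. GNAI1, an inhibitory G protein α subunit, had 525, 701 and 891 CPM in AsPC-1 NEG and 795, 1024 and 1429 in dTAG, with 8 of 10 dTAG values over the highest NEG value (0.56). In T3M-4 it had 196, 132, 78.9 and 67.2 CPM in NEG and 176, 265, 229 and 196 in dTAG (0.98), and the ranges overlapped. DNMBP, a guanine nucleotide exchange factor for CDC42, had differences of 0.57 and 0.72. The 5 metabolic enzymes (ELOVL6, LPIN1, UGCG, SAT1 and EGLN1) had medians of 0.51 and 0.66. ELOVL6, which elongates long-chain fatty acids, had 27.6, 34.7 and 44.4 CPM in AsPC-1 NEG and 35.7, 46.8 and 75.5 in dTAG. The T3M-4 values were 18, 19.9, 21.5 and 15.2 CPM in NEG and 23.4, 24.7, 27.6 and 34.2 in dTAG, with no overlap (differences 0.52 and 0.53). The 7 members in ubiquitin and protein handling (NEDD4, LONRF1, KLHDC2, CTSC, PAM, ANKRD28 and SUCO) had the lowest medians of these groups, 0.38 and 0.48. NABP1, MRPL15 and the 3 noncoding RNAs made up the rest. SNHG32, a small nucleolar RNA host gene, was second in the order by its smaller difference (0.73 and 0.79), although its libraries overlapped in both lines. In T3M-4 both of its groups lay below DMSO at 4 h, by −0.45 in dTAG and −1.24 in NEG on the same log2 scale.

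**Figure D1:**
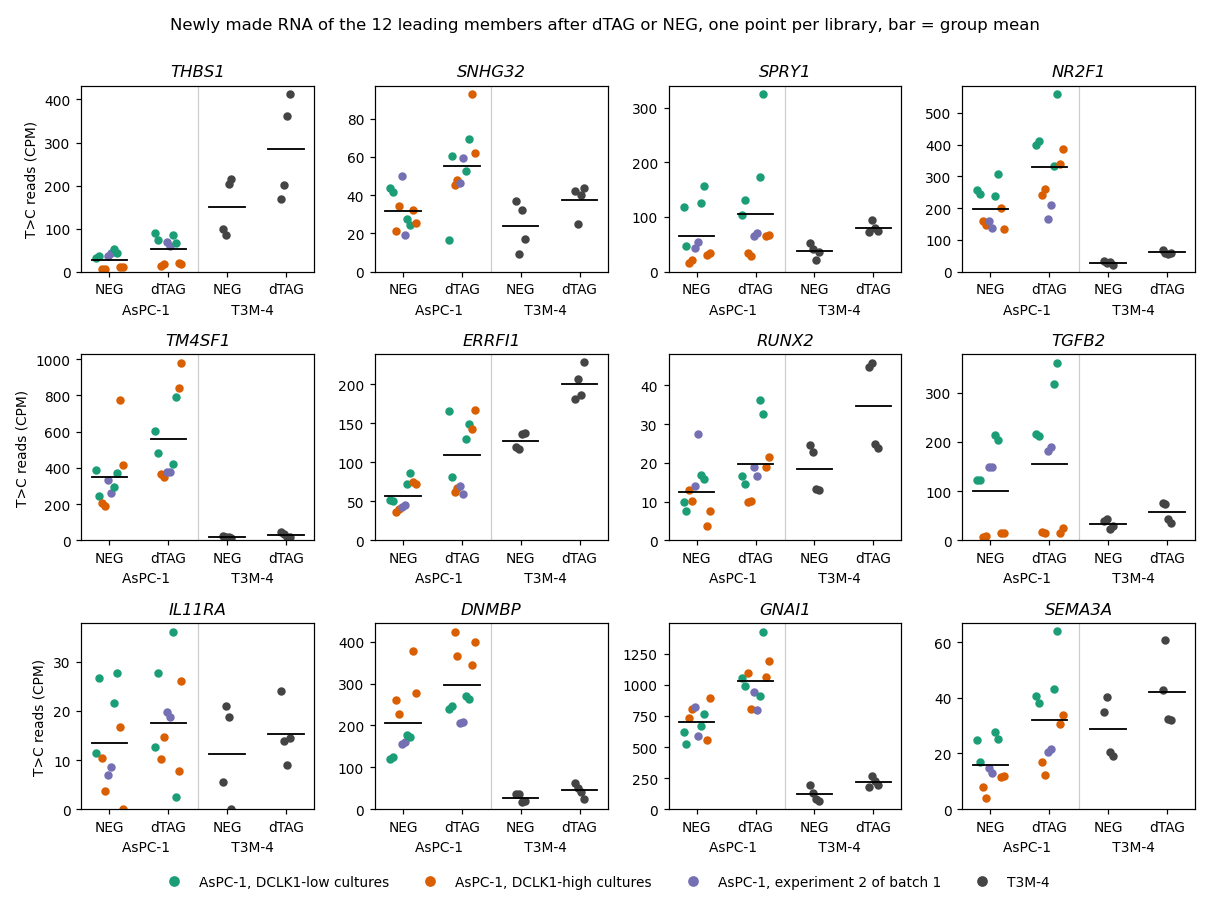
T>C CPM (linear axis) of the 12 members with the largest smaller-of-both-lines difference, one point per dTAG or NEG library of AsPC-1 (10 and 10, coloured by culture set) and T3M-4 (4 and 4). The groups overlap in every panel in AsPC-1, and do not in T3M-4 for SPRY1, NR2F1 and ERRFI1.

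Over all 56 members the median difference was 0.48 in AsPC-1 and 0.61 in T3M-4, against 0.01 and 0.00 over the 6821 genes. No member had every dTAG library of AsPC-1 above every NEG library (0 of 56, against 0.0293% of genes at the level part), and 13 had in T3M-4 (1.66% of genes): SPRY1, NR2F1, ERRFI1, ELOVL6, WWTR1, PRSS23, SPRY2, AHR, JAG1, SLC38A2, CTSC, UBASH3B and MRPL15. Within the culture sets of AsPC-1, with 4 libraries against 4, the groups did not overlap in 22 members in DCLK1-low (2.74% of genes), in 14 in DCLK1-high (2.8%), and in 7 in both, as in 34 of the 6821 genes. NR2F1, JAG1 and ELOVL6 were free of overlap in both sets and in T3M-4, as were 5 of the 6821 genes, these 3 included. The rule used these contrasts, and nothing is read from the shares.

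The labels give 3 experiments for dTAG and NEG in AsPC-1 and 2 in T3M-4, with experiments 1 and 2 of AsPC-1 and 1 of T3M-4 in batch 1 and the others in batch 2. The member median was 0.56, 0.35 and 0.51 in the experiments of AsPC-1 and 0.46 and 0.64 in those of T3M-4. Above 0 lay 55, 51 and 56 members in AsPC-1 and 53 and 56 in T3M-4. In all 5 experiments 49 of 56 members were above 0, and 11 reached 0.35 each time: THBS1, SPRY1, ERRFI1, SEMA3A, NFKBIZ, EPS8, CRIM1, RCAN1, NCOA7, DNMBP and SPRY2. Of the 7 members with an experiment below 0, SGCE was lowest, at −0.89 in experiment 2 of AsPC-1, which had 2 libraries a group. LONRF1 reached −0.26, RUNX2 −0.14 and DOCK9 −0.10.

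**Figure D2:**
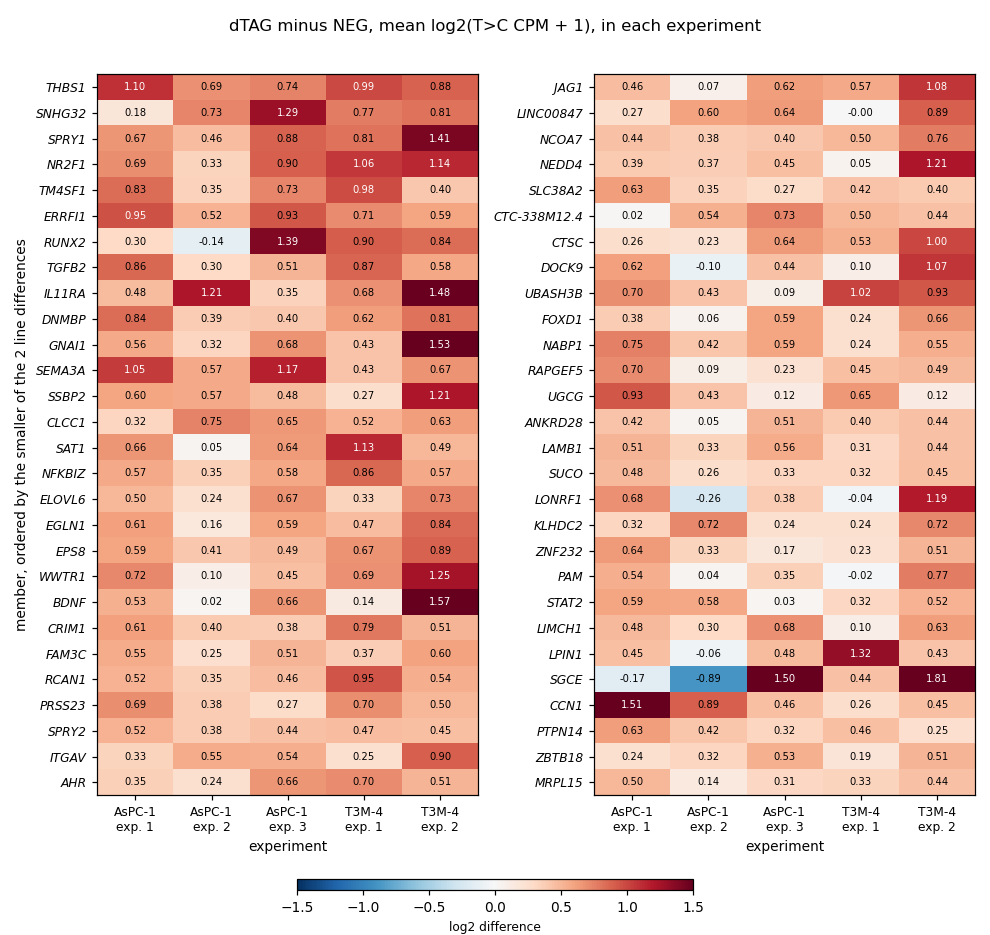
Difference dTAG minus NEG in log2(CPM + 1) of each member (rows, in the order of their smaller difference) in each of the 5 experiments (columns), on a colour scale clipped at 1.5 in both directions. Most cells are above 0, and 49 of the 56 rows are above 0 in every column, with SGCE in experiment 2 of AsPC-1 as the lowest cell.

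The NEG libraries were part of the rule, so dTAG and NEG were also set beside DMSO at 4 h, in the experiments that held all of them. In T3M-4 the median over the members was 0.52 for dTAG minus DMSO, with 54 of 56 above 0, and −0.02 for NEG minus DMSO, with 27 above 0. In AsPC-1 (experiments 1 and 2) it was 0.19 for dTAG minus DMSO, with 41 above 0. For NEG minus DMSO it was −0.25, with 9 above 0. Several named members lay below DMSO there in both groups, and further below it in NEG. ERRFI1 had −0.37 in dTAG and −1.18 in NEG, AHR −0.41 and −0.72, and SPRY1 −0.28 and −0.88. TM4SF1 had −0.18 and −0.85, TGFB2 −0.18 and −0.86, NFKBIZ −0.13 and −0.63, and SPRY2 −0.09 and −0.57. In T3M-4 the dTAG mean of each of these genes was above DMSO. Experiment 1 held 2 DCLK1-low and 1 DCLK1-high DMSO libraries but 2 and 2 of dTAG and of NEG. Within the DCLK1-low, DCLK1-high and experiment 2 sets, a comparison chosen after seeing the data, the NEG median was −0.11, −0.30 and −0.23 relative to DMSO, with 23, 12 and 10 members above 0, and the dTAG median 0.57, 0.14 and 0.01, with 49, 37 and 29 above 0. In all reads, which include RNA made before 4sU was added, the median difference of dTAG and NEG was 0.33 in each line, with 55 members above 0 in AsPC-1 and 53 in T3M-4. The AsPC-1 value lacks dTAG library 3.1, a DCLK1-low library with no usable all-reads column. Its dTAG and NEG groups are therefore not balanced over the culture sets in all reads.

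In AsPC-1, 15 members had over 2-fold higher NEG levels in DCLK1-low than in DCLK1-high libraries and 1, RAPGEF5, was over 2-fold higher in DCLK1-high. The DCLK1-low to DCLK1-high ratio of mean NEG levels was 13.9 for TGFB2 (166 and 11.9 CPM), 9.75 for ZBTB18, 4.65 for NFKBIZ, 4.6 for THBS1, 4.34 for SPRY1 and 4.24 for LIMCH1. For each of the genes named the ratio between culture sets was larger than that of dTAG over NEG.

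Pathway lists put the members beside the other genes of their pathways at the same level. Of 21 YAP and TEAD targets at the level part 4 were members (TGFB2, CRIM1, CCN1 and PTPN14) and 3 were lower in both lines (F3, MYOF and WWC1), with list medians of −0.06 in AsPC-1 and −0.24 in T3M-4. Of 11 ERK feedback genes 2 were members, SPRY1 and SPRY2, and 2 were lower in both lines, the cyclin CCND1 and the receptor EPHA2, with medians of 0.10 and 0.05. THBS1 and ITGAV were the members among 9 mesenchymal and matrix genes, of which MMP14 and PLAUR were lower in both lines. JAG1 was the member among 7 Notch genes, of which the target HES1 and the glycosyltransferase LFNG were lower in both. Of 21 TGF-β and BMP genes TGFB2 was a member, and the inhibitor BAMBI and the BMP target ID1 were lower in both. STAT2, with differences of 0.37 and 0.42, was the member among 15 interferon and NF-κB genes. In that list IRF1 and TNFAIP2 were lower in both lines, and the medians were −0.22 and −0.05. The lists are not complete. The member NFKBIZ was not in the interferon and NF-κB list, ERRFI1 not in the ERK feedback list, and ITGAV not in the actin and focal adhesion list.

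Other lists held 0 members: 15 immediate-early and AP-1 genes, 35 actin and focal adhesion genes (7 lower in both lines), 28 cell cycle genes, 12 p53 targets, 15 stress response genes, 11 KLF and SP factors, 19 growth factor receptors and ligands, 22 kinesin, dynein and microtubule genes, and 25 SNARE genes. Sterol synthesis and uptake held 0 members of 23 although 12 reached the difference in T3M-4, since 0 did in AsPC-1. The lone genes of the classical and basal-like marker lists at the level part, ELF3 and S100A2, were both lower in both lines.

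The labelled share of a gene, the percentage of its reads that carry T>C conversions, is higher for RNA that turns over quickly. In DMSO libraries at 4 h, which the rule did not use, the members had a median share of 24.1% in AsPC-1 (quartiles 14.4% and 38.8%) against 16.5% (10.0% and 25.4%) over genes at the level part, with 39 of 56 above the latter median. In T3M-4 the medians were 27.4% and 18.1%, with 38 of 56 above. The 300 genes lower in both lines had medians of 14.9% and 17.3%. By the mean of both lines, the highest shares belonged to NFKBIZ, an IκB protein that modulates NF-κB targets, with 61.5%, 58.1%, 56.6%, 59.8% and 56.9% in AsPC-1 and 80.7%, 81.5%, 85.1% and 89.7% in T3M-4, to CCN1 (means 59.7% and 73.0%) and to SPRY2 (55% and 76.6%). ERRFI1 (57.1% and 73.2%) and SPRY1 (47.9% and 75.1%) followed close behind. The lowest belonged to IL11RA (5.43% and 8.31%), to the ubiquitin ligase adaptor KLHDC2, with 10.7%, 8.0%, 9.79%, 6.39% and 7.03% in AsPC-1, and to the peptide-amidating enzyme PAM, with 7.95%, 9.84%, 7.67%, 5.44% and 7.19%. The libraries of NFKBIZ lay far above those of KLHDC2 and PAM in both lines.

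Between dTAG and NEG the labelled share of the members, by gene, differed by a median of −1.77 percentage points in AsPC-1, where all genes at the level part had −2.49, and by 4.30 points in T3M-4, where they had 0.62. Summed over the members, the share was 18.1% in dTAG and 18.9% in NEG libraries of AsPC-1 and 31.9% and 24.7% in T3M-4. In AsPC-1 the summed share of the members was thus a little lower in dTAG, while that of all genes at the level part was 7.98% against 9.26%. The AsPC-1 shares come from 9 dTAG and 10 NEG libraries, since dTAG library 3.1, a DCLK1-low one, had no usable all-reads column.

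**Figure D3:**
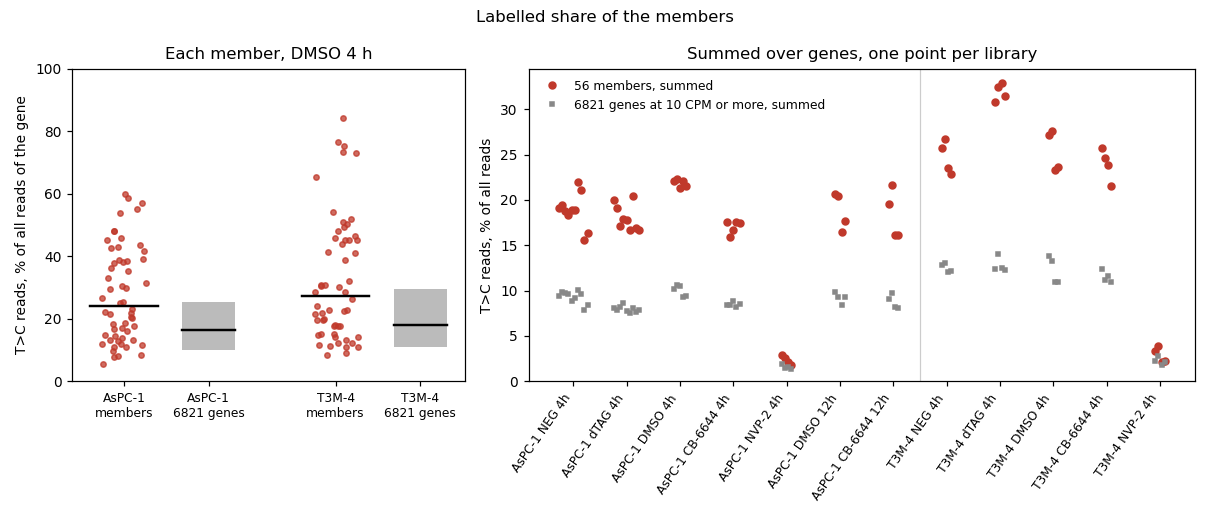
Left, percentage of each member's reads with T>C conversions in DMSO libraries at 4 h (points, line at the median) beside the quartiles and median of the 6821 genes. Right, the same percentage summed over the members (red) or the 6821 genes (grey), one point per library. Member medians were 24.1% and 27.4%, and the summed share fell to 2.32% and 2.87% after NVP-2.

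CB-6644 was compared with DMSO to ask how the members respond when RUVBL1/2, the ATPases that the study considers as coactivators with KLF5, are inhibited. All 56 members passed the filter on low counts in every inhibitor comparison, and edgeR's quasi-likelihood test called 0 members higher and 0 lower with CB-6644 in AsPC-1 (4 h and 12 h) and in T3M-4, as it did 0 of 11649, 12204 and 13444 genes (0%). DESeq2 also called 0 members. At an unadjusted p under 0.05 there were 0 higher and 5, 3 and 4 lower members, and 249, 230 and 239 lower and 233, 243 and 330 higher genes. The member medians, log2 of CB-6644 over DMSO, were −0.18, −0.08 and −0.10, against −0.01, −0.01 and 0.00 over all genes tested, with 40, 35 and 39 of 56 below 0. Single libraries moved these medians by over 1.5 times: to −0.10 without DMSO library 2.2 at 4 h in AsPC-1, to 0.03 (above 0) without DMSO library 2 and −0.01 without CB-6644 library 3 at 12 h, and to −0.03 without DMSO library 1.1 in T3M-4. The 300 genes lower in both lines had medians of −0.15, −0.13 and −0.04.

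ERRFI1 had the lowest log2 fold change at 4 h in AsPC-1, −0.95 (SE 0.32, edgeR unadjusted p 0.0108, adjusted p at least 0.979 as for every member), with 79.7, 64.5, 73.7, 162 and 174 CPM in DMSO and 91.0, 41.5, 46.4, 51.1 and 54.1 after CB-6644. The groups overlapped, since 1 CB-6644 library lay above 3 DMSO libraries. NR2F1 (−0.65), TM4SF1 (−0.53), AHR (−0.47) and SGCE (−0.58) were the other 4 at that unadjusted p. At 12 h JAG1 had 63.6, 56.2, 54.2 and 56.7 CPM in DMSO and 40.0, 44.5, 35.8 and 37.3 after CB-6644, with no overlap (−0.54, edgeR unadjusted p 0.00811). SNHG32 (−0.85) and ELOVL6 (−0.48) were the others. In T3M-4 SGCE had 34.0, 31.2, 20.4 and 46.6 CPM in DMSO and 17.5, 11.3, 16.6 and 15.7 after CB-6644 (−1.11), BDNF 165, 196, 191 and 135 against 97.9, 92.3, 119 and 80.0 (−0.81), and SPRY1 41.1, 60.0, 31.5 and 29.8 against 19.5, 18.8, 20.6 and 25.2 (−0.95). SNHG32 (−0.92) was the fourth. The members of this paragraph were picked by their unadjusted p, so nothing is read from groups that did not overlap. SNHG32 and SGCE recurred in 2 of the 3 comparisons, and none of these values passed the adjusted threshold.

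The set composition of the AsPC-1 groups at 4 h was uneven, with 2 DCLK1-high, 1 DCLK1-low and 2 experiment 2 libraries after CB-6644 and 1, 2 and 2 in DMSO, and THBS1, which depends on the set, had a log2 fold change of −0.82 (edgeR unadjusted p 0.154). With the culture set as a block (chosen after seeing the data) edgeR again called 0 members, and 9 members were lower and 0 higher at an unadjusted p under 0.05 at 4 h, as at 12 h, beside 329 lower and 218 higher of all genes at 4 h and 451 and 402 at 12 h. The effect of CB-6644 in T3M-4 minus that in AsPC-1 at 4 h was called in 0 members and 0 genes (0%).

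Summed over the members, the labelled share per library was 22.1%, 22.3%, 21.3%, 22.1% and 21.5% in AsPC-1 DMSO at 4 h and 17.6%, 15.9%, 16.6%, 17.6% and 17.5% after CB-6644. The groups did not overlap, and the means, 21.9% and 17.0%, differed by −4.81 points (two-sided exact permutation p 0.00794, which is the lowest value possible with these groups, adjusted over 5 comparisons 0.0198). In sums this left the members at 78.0% of their control share and genes at the level part at 84.6%. By gene the medians were 82.3% and 85.5%, and the 300 genes lower in both lines were at 78.3%. At 12 h the difference was −0.44 points (exact permutation p 0.714) and in T3M-4 −1.48 points (exact permutation p 0.343, adjusted 0.429), so neither was past the threshold.

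**Figure D4:**
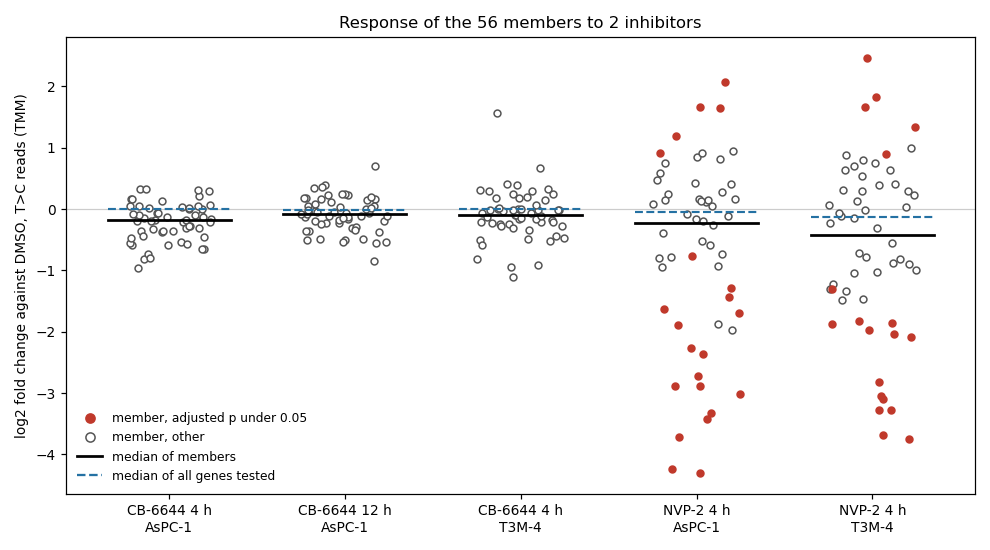
Log2 fold change of each member against DMSO in the 5 inhibitor comparisons, filled where the edgeR adjusted p was under 0.05, with the median of the members and of all genes tested. No point is filled after CB-6644, and after NVP-2 5 higher and 17 lower members are filled in AsPC-1 and 5 higher and 14 lower in T3M-4.

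NVP-2 blocks release of paused RNA polymerase II, and its libraries held few T>C reads, from 2240998 to 4982006. The summed labelled share of the members was 2.32% against 21.9% in AsPC-1 (difference −19.5 points, exact permutation p 0.00794, adjusted 0.0198) and 2.87% against 25.4% in T3M-4 (−22.5 points, exact permutation p 0.0286, again the lowest possible, adjusted 0.0476). In sums the members kept 10.6% and 11.3% of their control share, where genes at the level part kept 15.7% and 18.2%. By gene the order turned in AsPC-1, where the member median was 12.7% against 11.8% over genes at the level part, and in T3M-4 it was 11.5% against 12.3%, with 30 and 26 of 56 members above the latter. The fold changes below are relative to the other T>C reads of a library. Scaled by all reads, 55 of 56 members were called lower and 0 higher in each line, with a median over all genes of −3.07 and −2.97. So were 10672 of 11498 genes lower in AsPC-1 and 10534 of 12242 in T3M-4. In AsPC-1 all NVP-2 libraries are of batch 2 and all DMSO libraries at 4 h of batch 1, so batch and drug cannot be told apart there.

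On the relative scale edgeR called 5 members higher and 17 lower in AsPC-1 (background 12.9% and 17.6% of 11498 genes) and 5 higher and 14 lower in T3M-4 (12.4% and 14.2% of 12242 genes). The member median was −0.23 in AsPC-1 and −0.43 in T3M-4, against −0.05 and −0.12 over all genes tested. In T3M-4 it was −0.11 (all genes −0.07) without DMSO library 1.1, −0.70 (−0.24) without NVP-2 library 1.1 and −0.70 (−0.23) with the replicate block, and in AsPC-1 it was −0.44 and −0.42 without NVP-2 library 1.1 or 1.2 and −0.39 without 2.1. In both lines 12 were lower: THBS1, SPRY1, ERRFI1, SAT1, BDNF, SPRY2, LINC00847, SLC38A2, FOXD1, NABP1, CCN1 and ZBTB18. In both lines 2 were higher, SEMA3A and SGCE. Calls shared by both lines were not counted over all genes, so nothing is read from these 2 counts. TM4SF1, RCAN1, AHR, JAG1 and ZNF232 were called lower in AsPC-1 alone, SNHG32 and MRPL15 in T3M-4 alone, and 0 members were called in opposite directions. With the replicate block T3M-4 had 6 higher and 17 lower members, ITGAV being added to the former (0.83) and AHR (−1.01), PRSS23 (−0.84) and UGCG (−1.62) to the latter, so that UGCG then had opposite calls. Of all 12242 genes 1763 were higher and 2216 lower with that block. With DMSO at 12 h, which is of batch 2, as the AsPC-1 control, 5 were higher and 16 lower, beside 1199 and 1629 of 11293 genes. Leaving out DMSO library 1.1, 1.2, 1.3 or 2.1 of AsPC-1 took the higher calls there from 5 to 3.

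The Sprouty proteins, ERRFI1 and CCN1 were among the members that fell. SPRY2 had 101, 59.2, 96.2, 77.1 and 98.2 CPM in AsPC-1 DMSO and 12.8, 11.2, 10.3 and 10.1 after NVP-2, with no overlap (−2.89, SE 0.27, edgeR adjusted p 5.08e-05). The T3M-4 libraries showed 52.3, 48.7, 58.7 and 63.3 CPM in DMSO and 9.38, 7.85, 0.746 and 13.1 after NVP-2, again with no overlap (−2.81, SE 0.58, edgeR adjusted p 0.00596). SPRY1 had 158, 81.3, 54.7, 42.9 and 87.6 against 9.81, 12.1, 7.97 and 1.89 CPM in AsPC-1 and 41.1, 60.0, 31.5 and 29.8 against 5.28, 3.69, 0.746 and 6.53 in T3M-4 (−3.32 and −3.28). ERRFI1 had 79.7, 64.5, 73.7, 162 and 174 against 14.9, 18.2, 13.6 and 10.1 CPM in AsPC-1 and 124, 91.8, 119 and 139 against 42.2, 24.0, 19.0 and 22.6 in T3M-4 (−2.88 and −2.09, edgeR adjusted p 0.000353 and 0.00162). Neither gene overlapped in either line. CCN1 fell from 281, 444, 246, 1385 and 1055 to 74.6, 104, 79.7 and 62.4 CPM in AsPC-1 (−3.02, SE 0.53) and from 237, 272, 463 and 501 to 62.2, 47.1, 25.7 and 11.3 in T3M-4 (−3.28, SE 0.52).

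Among other members called lower, NABP1, a single-stranded DNA binding protein, had 270.0, 200.5, 209.6, 298 and 288 CPM in AsPC-1 DMSO and 61.8, 24.7, 26.7 and 32.1 after NVP-2 (−2.73, SE 0.32, edgeR adjusted p 0.000132), and in T3M-4 197, 197, 223 and 219 against 25.8, 16.9, 33.6 and 18.3 (−3.10, SE 0.31, edgeR adjusted p 0.000272). ZBTB18, a zinc finger repressor, fell by 3.75 on the log2 scale in T3M-4 (45.3, 39.7, 31.6 and 41.8 against 4.40, 1.15, 3.73 and 2.17 CPM) and by 3.72 in AsPC-1, where 1 DMSO library lay at 6.94. Its falls rested on 35 T>C reads summed over the NVP-2 libraries of T3M-4 and 25 in AsPC-1. FOXD1, a forkhead factor, fell by 4.24 and 3.04, but on 16 and 29 T>C reads summed over the NVP-2 libraries of AsPC-1 and T3M-4. THBS1 fell by 1.89 in AsPC-1 (SE 0.59, edgeR adjusted p 0.03), with overlapping groups, and by 1.87 in T3M-4 (SE 0.41, edgeR adjusted p 0.00809), without overlap.

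The members called higher kept more of their T>C reads than most genes of the same libraries. SEMA3A had 18.7, 19.4, 13.8, 15.1 and 18.2 CPM in AsPC-1 DMSO and 70.3, 56.8, 42.2 and 33.4 after NVP-2 (1.65, SE 0.28, edgeR adjusted p 0.0014). T3M-4 showed 31.7, 36.5, 24.4 and 20.8 CPM in DMSO and 68.3, 65.1, 77.6 and 68.3 after NVP-2 (1.35, SE 0.29, edgeR adjusted p 0.00676), and the groups overlapped in neither line. SGCE, ε-sarcoglycan, had 74.1, 116, 86.0, 59.5 and 71.6 against 411, 361, 102 and 108 CPM in AsPC-1 (1.67) and 34.0, 31.2, 20.4 and 46.6 against 91.2, 109, 391 and 116 in T3M-4 (2.46), and only AsPC-1 showed overlap. The NVP-2 libraries 1.1 and 1.2 of AsPC-1 are DCLK1-low and 2.1 and 2.2 DCLK1-high, and the high SGCE values are those of the DCLK1-low pair. With the culture set as a block SGCE was also called (1.68). UGCG, which makes glucosylceramide, had 93.5, 129, 76.6, 163 and 174 CPM in AsPC-1 DMSO and 548, 913, 263 and 305 after NVP-2 (2.07, SE 0.38, edgeR adjusted p 0.00216). In T3M-4 it was not called (−1.04, edgeR adjusted p 0.271). With the replicate block it was called lower there (−1.62, edgeR adjusted p 0.0411). The interaction of drug and line, −3.13, missed the threshold (edgeR adjusted p 0.0645) and passed it with the block (−3.65, edgeR adjusted p 0.0138).

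EPS8, an actin capping and signalling adaptor, had 326, 377, 449, 535 and 603 CPM in AsPC-1 DMSO and 599.8, 447, 381 and 374 after NVP-2 (0.05, edgeR adjusted p 0.898). T3M-4 libraries had 60.2, 41.7, 82.2 and 47.7 CPM in DMSO and 141, 177, 228 and 254 after NVP-2, with no overlap (1.82, SE 0.32, edgeR adjusted p 0.00251). Without the block it was the 1 member whose effect differed between the lines (1.76, SE 0.40, edgeR adjusted p 0.0415), where 0.296% of 13159 genes differed in that direction and 0.555%, and 0 members without the block, in the other. PTPN14, a phosphatase that binds YAP, was called higher in T3M-4 (55.1, 44.1, 70.6 and 75.9 against 123, 127, 284 and 229 CPM, 1.67). DOCK9 was called higher in T3M-4 (43.3, 40.7, 29.6 and 41.8 against 73.9, 65.8, 72.4 and 70.5 CPM, 0.91, edgeR adjusted p 0.0267), as were CRIM1 (0.92, edgeR adjusted p 0.0346) and PAM (1.19, edgeR adjusted p 0.0359) in AsPC-1. Leaving out any 1 DMSO library of T3M-4 ended the call of DOCK9 (0.82 to 0.98), and leaving out DMSO library 1.1, 1.2, 1.3 or 2.1 of AsPC-1 ended those of CRIM1 (0.85 to 0.98) and PAM (1.1 to 1.26), as did leaving out NVP-2 library 1.1 or 1.2 for CRIM1 (0.77 and 0.71) and 2.1 or 2.2 for PAM (0.77 and 0.99).

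The labelled share in DMSO was set beside the response to NVP-2. Members called lower had a median DMSO share of 38.7% in AsPC-1 and 49.1% in T3M-4, those called higher 13.3% and 18.1%, and those not called 19.4% and 22.3%. Among genes at the level part the medians were 26.7% and 34.2%, 12.2% and 12.0%, and 14.9% and 17.3%. Spearman's rank correlation between share and log2 fold change was −0.55 and −0.59 over the 56 members and −0.45 and −0.48 over the 6821 genes, across genes that are not independent, and both axes used the same DMSO libraries. NFKBIZ and UGCG stood apart from this order. NFKBIZ, with the highest share in T3M-4 and, after CCN1, the next highest in AsPC-1, was not called (−0.79 and −0.07, edgeR adjusted p 0.488 and 0.944), and UGCG, at 53.8% in AsPC-1, was called higher. Of its control share UGCG kept 48.8% in AsPC-1 and 5.5% in T3M-4, SGCE 38.1% and 91.1%, and LINC00847 1.5% in each line. The values of LINC00847 rested on 40 and 20 T>C reads summed over the NVP-2 libraries of AsPC-1 and T3M-4.

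**Figure D5:**
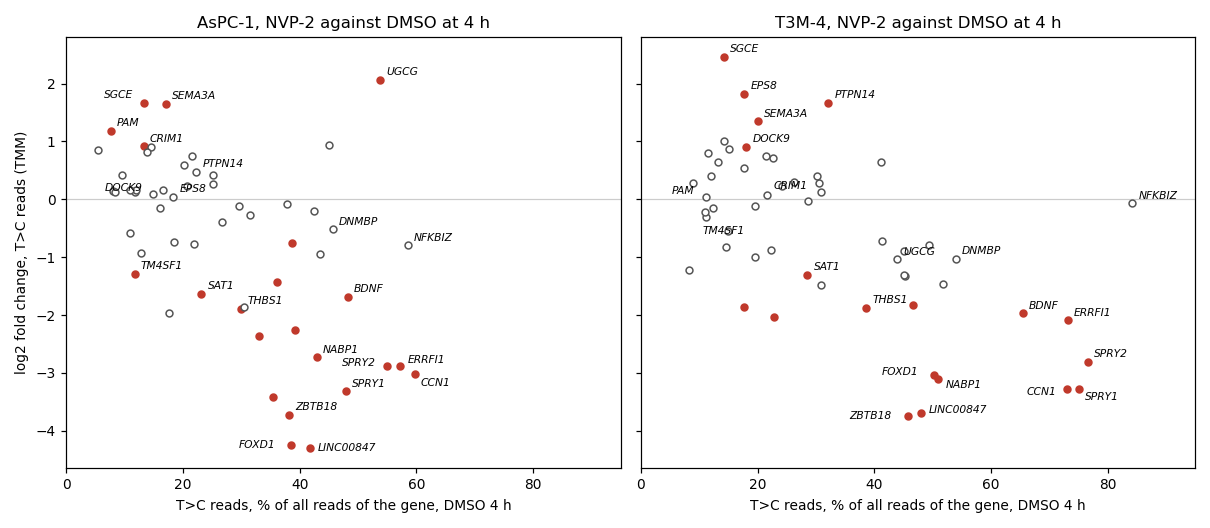
Log2 fold change of T>C reads after NVP-2 against the labelled share in DMSO at 4 h, one point per member, filled where the edgeR adjusted p was under 0.05, in AsPC-1 (left) and T3M-4 (right). Members with a high share lie low, with a Spearman's rank correlation of −0.55 and −0.59, and UGCG in AsPC-1 and NFKBIZ in both lines lie above the rest at their share.

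The pathway lists gave the other genes of these pathways after NVP-2. Of 16 ERK feedback genes tested in AsPC-1 1 was called higher and 11 lower (list median −1.84), and of 16 in T3M-4 1 and 9 (−2.08). Of 24 YAP and TEAD targets in AsPC-1 2 were called higher and 10 lower (−0.92), and of 26 in T3M-4 2 and 10 (−0.60). Of 19 and 17 immediate-early and AP-1 genes, which held no member, 12 and 13 were called lower and 0 higher. After CB-6644 0 genes of these lists were called in any comparison. By role, 3 of 8 secreted proteins were called lower in each line, 3 and 1 of 8 membrane proteins, 4 and 3 of 6 feedback inhibitors, 4 and 2 of 11 transcription regulators, 1 and 1 of 5 metabolic enzymes, and 2 and 4 of the 5 other members, in AsPC-1 and T3M-4 in that order. The 6 GTPase and cytoskeleton regulators and the 7 members in protein handling held 0 lower calls. Called higher were 1 and 1 secreted proteins, 2 and 1 membrane proteins, 0 and 1 feedback inhibitors, 0 and 2 GTPase and cytoskeleton regulators, 1 and 0 in protein handling and 1 and 0 metabolic enzymes. The background stays 17.6% and 14.2% lower and 12.9% and 12.4% higher.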

How the data were processed

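Newly made RNA was measured with 3′-end SLAM-seq libraries of 42 AsPC-1 and 20 T3M-4 samples, grouped by their labels. The authors aligned the reads to hg38 and counted them with slamdunk over GENCODE v44 3′UTR exons, per the study's methods, and the deposited tables give raw counts of each gene, one set for T>C reads and one for all reads. No spike-in and no library without 4sU was used here, so absolute amounts and the background rate of conversions are unknown. All reads ran from 82676553 to 200298262 per library in AsPC-1 (41 libraries) and from 111132257 to 244524608 in T3M-4 (20). The all-reads column of AsPC-1 dTAG library 3.1 was left out because it was identical to the T>C column of another sample. The T>C reads of library 3.1 exceeded it in 8047 genes. In addition, 18 empty columns were dropped.

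Levels are CPM with TMM factors over all libraries of a line. Fold changes come from fits scaled on the compared groups alone, with edgeR 4.0.16 in R 4.3.3 (filterByExpr, TMM, glmQLFit, glmQLFTest) over all genes that passed the filter, with Benjamini-Hochberg adjusted p-values under 0.05 called. A fold change's SE is its size divided by the square root of F. Effects in both lines were compared by interaction terms, and summed labelled shares by two-sided exact permutation tests adjusted over 5 comparisons. DESeq2 1.42.0, RLE, no filter, scaling by all reads, all reads as the outcome, single experiments, a replicate block and each library left out were alternatives. Simulated counts held 200 changed genes per comparison. A log2 change of 2 was recovered in 100% of genes for CB-6644 at 4 h in AsPC-1 (11436 genes) and in 48% for NVP-2 in T3M-4 (11963 genes), and a change of 1 in 56% and 4%. For CB-6644 at 12 h in AsPC-1 and at 4 h in T3M-4, a change of 2 was recovered in 95% and 100%, and a change of 1 in 23% and 32%. For NVP-2 in AsPC-1 the shares were 91% and 18%.

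The members, gene lists and role groups were chosen with earlier results of these data known. The genes named were the 12 members with the largest smaller-of-both-lines difference, up to 5 called members by p in each comparison and direction, the 2 nearest the threshold on each side, members in a gene list, the 3 with the highest and the 3 with the lowest labelled share, and KLF5. Others were added after their values were seen: ELOVL6, WWTR1, AHR, BDNF, NFKBIZ and LINC00847 where a result turned on them, and single names in counts. The main tests and the exact permutation tests treated no libraries as pairs. The replicate block, by experiment at 4 h and by replicate number at 12 h, was an alternative. Deviations from group means of same-numbered libraries correlated at 0.52 by experiment for CB-6644 at 4 h in AsPC-1 and at 0.17 to 0.79 by replicate at 12 h. In T3M-4 they correlated at 0.62 and 0.39 by experiment for CB-6644 and NVP-2. For NVP-2 in AsPC-1 the correlation was 0.016, so these share only a number, but the block was run there too. Python 3.11.15 with pandas 2.3.3 made annotation tables and figures. One gene list is not reported here.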

Additional observations from a re-analysis of the deposited data

Results flagged for a closer look

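In groups of 4 to 10 libraries, single libraries that stood far from the rest of their group were sought in 156 groups of values of the leading members, of which chance would flag about 1 in 20, and 10 were found. Library 1.1 of CB-6644 at 4 h in AsPC-1 stood above the others for SPRY1 (145.67 T>C CPM, next 43.797), NR2F1 (237.65, next 124.34) and ERRFI1 (91.014, next 54.126), and library 1.3 of that group stood below for TM4SF1 (255.83, next 345.06). Without library 1.1, edgeR called 0 members after CB-6644 as with it, and 10 in place of 5 members were lower and 1 in place of 0 higher at an unadjusted p under 0.05, while all genes went from 249 to 637 lower and from 233 to 613 higher. Library 1.1 was the one DCLK1-low library of that group, and SPRY1 was 4.34 times higher in DCLK1-low than in DCLK1-high NEG libraries. GNAI1 reached 1029.8 CPM in library 4 of DMSO at 12 h (next 553.75). In the groups used by the rule, SPRY1 reached 324.65 CPM in dTAG library 3.2 of AsPC-1 (next 172.65) and TM4SF1 777.2 in NEG library 3.3 (next 418.23). IL11RA reached 68.076 CPM in NVP-2 library 2.2 of AsPC-1 (next 8.3824) and 13.432 in NVP-2 library 2.1 of T3M-4, where the other libraries were at 0. RUNX2 reached 29.22 CPM in DMSO library 1.1 of T3M-4 (next 15.728). EPS8 was listed because its response to NVP-2 differed between the lines by an interaction term, with a log2 difference of 1.7551. The causes were not tested.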

How the results depend on the processing

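Of the alternative values for counts, medians and shares, 293 kept their direction and side of the threshold, 22 moved and 4 reversed, and of those for single members 284 kept theirs, 35 lost the call and 11 reversed. Scaling by all reads moved the CB-6644 median at 4 h in AsPC-1 to −0.37 and gave, after NVP-2, 0 higher and 55 lower members in each line with medians of −3.28 and −3.29. It reversed SEMA3A (−1.34), UGCG (−0.92), SGCE (−1.31), CRIM1 (−2.07) and PAM (−1.90) in AsPC-1 and EPS8 (−1.09), SGCE (−0.60), PTPN14 (−1.29), SEMA3A (−1.58) and DOCK9 (−1.99) in T3M-4, since nearly every gene is then lower. With all reads as the outcome, 0 members were called higher in either line, 8 lower in T3M-4, and SGCE reversed there (−0.29). Of all genes 484 of 14095 were then higher in AsPC-1, and 38 higher and 769 lower of 15653 in T3M-4. The cause was not tested. Experiment 2 alone called 3 members higher in T3M-4. Leaving out 1 library each called 3 to 6 members higher in AsPC-1 after NVP-2 with a median of −0.44 to −0.20 (−0.44 and −0.42 without NVP-2 library 1.1 or 1.2), gave a median of −0.70 to −0.11 in T3M-4, and moved the CB-6644 difference in summed share at 12 h between −1.54 and 0.32 points.

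The number of members was 11 after scaling by all reads, 19 at a threshold of 0.50, and 87 and 89 with DCLK1-low or DCLK1-high libraries alone (both chosen after seeing the data). With the replicate block, PAM after NVP-2 in AsPC-1 lost its call (0.87), 4 members were higher and 20 lower there, and 1 member in place of 0, UGCG, had a lower effect in T3M-4 than in AsPC-1 (−3.65). In T3M-4 it added 4 calls and took the median to −0.70, and it ended no other call of a named member. Depth limits NVP-2 most, with 2240998 T>C reads in the shallowest library.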
